A study of Saccharomyces cerevisiae with 28 samples.

Results

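The YRF1 genes encode helicases of the Y' elements, repeated blocks of DNA next to the telomeres of Saccharomyces cerevisiae. The family was taken as the 8 annotated genes YRF1-1 to YRF1-8 of the 7125 genes of the expression table, chosen by name and not by their values, and all 8 were detected in all 28 libraries. Because the copies are nearly identical, the sum of the 8 is given beside the single genes.

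The RNA-seq libraries came from mutants of enzymes that belong to SESAME, a complex of metabolic enzymes that phosphorylates histone H3, and from their wild types. The 5 mutants are labelled acs2-ts (acetyl-CoA synthetase, a temperature-sensitive allele by its name), sam1 (S-adenosylmethionine synthetase), ser33 (phosphoglycerate dehydrogenase), shm2 (serine hydroxymethyltransferase) and pyk1 (pyruvate kinase). BY4741, a laboratory strain derived from S288C, was the reference for the sam1, ser33 and shm2 mutants, while acs2-ts and pyk1 each had a wild type of their own. All 8 strains grew in rich medium (YPD) and were taken at OD600 values between 0.7 and 1, with 2 cultures (biological replicates) each. The labels give no growth temperature, no allele of pyk1 and no background of the other wild types, so the strain pairs cannot be told apart from differences in temperature or background. In 6 strains each culture gave 2 libraries from the same RNA, while pyk1 and its wild type had 1 library per culture.

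The libraries held 4330000 to 36520000 reads assigned to genes, with a median of 14820000. A YRF1 gene had 230 to 3627 reads in a library. SAM1 was at 0.0600 to 0.362 RPKM (reads divided by exon length and by library size) in the sam1 libraries, SER33 at 0 to 0.656 RPKM in the ser33 libraries, and SHM2 at 0.0890 to 0.276 RPKM in the shm2 libraries, so that these labels matched the targeted genes. ACS2 RNA was 531 ± 36.5 RPKM (SD of 2 cultures) in acs2-ts against 233 ± 19.8 RPKM in its wild type, and CDC19, which encodes pyruvate kinase, was at 4021 ± 178 and 3618 ± 644 RPKM in pyk1 and its wild type. RNA levels of these genes therefore do not check the acs2-ts and pyk1 labels.

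Yeast chromosomes end in short telomeric repeats. Many ends carry Y' elements just inside those repeats, and each element holds a helicase-like reading frame that is intact in some copies and interrupted in others. Chromatin bound by the Sir2, Sir3 and Sir4 proteins keeps genes near telomeres low. In cells that have lost telomerase, survivors of one kind maintain their ends by amplifying Y' elements through recombination, and YRF1 helicase is produced in such survivors.

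All 8 genes lie at chromosome ends in the R64 reference (the sacCer3 assembly) and are read towards the telomere. On right arms and the + strand are YRF1-1 (YDR545W, chrIV:1526321-1531711), YRF1-2 (YER190W, chrV:571480-576525), YRF1-3 (YGR296W, chrVII:1084864-1090591) and YRF1-8 (YOR396W, chrXV:1085473-1090863). The right arm of chromosome XII carries both YRF1-4 (YLR466W, chrXII:1067087-1071235) and YRF1-5 (YLR467W, chrXII:1072508-1077898). On left arms and the - strand are YRF1-6 (YNL339C, chrXIV:371-6098) and YRF1-7 (YPL283C, chrXVI:280-6007). The gene ends lie 222 to 428 bp from the chromosome end, except that of YRF1-4, which lies 6942 bp inside it because a second Y' element follows. YRF1-3, YRF1-6 and YRF1-7 have 2 exons and the others 1. The reading frames differ mainly in where they start. Relative to YRF1-3, with 5580 coding bases, the frames of YRF1-1, YRF1-5 and YRF1-8 start 192 bases later, that of YRF1-2 534 bases later and that of YRF1-4 1434 bases later.

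Over the bases they share, the 28 pairs of YRF1 genes were 99.4% to 100% identical, and 4 pairs had no difference at all. YRF1-1, YRF1-5 and YRF1-8 were the same sequence, as were YRF1-3 and YRF1-7, and YRF1-6 differed from YRF1-3 at 2 bases. The greatest number of differences in a pair was 33. The following 60 bases, the stretch of this length in all 8 frames with the most differences, show how little separates the copies. Capitals mark the 5 positions at which the 8 genes differ, and YRF1-1 stands for YRF1-5 and YRF1-8, and YRF1-3 for YRF1-2, YRF1-6 and YRF1-7, which carry the same bases here. The first comes from chrIV:1527630-1527689, the second from chrVII:1086513-1086572 and the third from chrXII:1067154-1067213, all on the + strand.
YRF1-1: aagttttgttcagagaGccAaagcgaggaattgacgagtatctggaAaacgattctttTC
YRF1-3: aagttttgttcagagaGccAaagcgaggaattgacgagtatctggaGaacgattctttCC
YRF1-4: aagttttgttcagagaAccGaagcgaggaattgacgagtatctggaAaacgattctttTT

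Of all stretches of 50 bases in a YRF1 reading frame, 0 occurred only once in the genome in 6 of the 8 genes. In YRF1-2, 100 of 4997 stretches (2.0%) were found once, and in YRF1-4, 50 of 4100 (1.22%). The median stretch was found at 14 or 15 places, since 33 genes form 1 group of near-identical sequences (at least 95% identity over 80% of the length), namely the 8 YRF1 genes, 15 of 16 other helicase-like frames of Y' elements on the list used below, and 10 more. The 250 bases before the start codon were also shared, by YRF1-1, YRF1-5 and YRF1-8 on one side and by YRF1-3, YRF1-6 and YRF1-7 on the other. The letters TTAGGG (bound by Tbf1), CGGGTAA (bound by Reb1) and ACGCGT (the MCB motif), searched on both strands, occurred in 0 of 8 of these stretches and in 6.35%, 6.86% and 2.85% of 6430 genes. Because the stretches are shared they are not 8 independent sequences, and at these shares a count of 0 does not set the family apart.

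The files still gave every copy its own value. The deepest library, from replicate 2 of BY4741, held 3489 reads of YRF1-1, 3446 of YRF1-5 and 3509 of YRF1-8, 3 genes that cannot be told apart by sequence. Across the 28 libraries these 3 counts were equal in 0, and their differences gave a chi-square of 1.22 per degree of freedom, where counting noise alone gives about 1. The value for the identical pair YRF1-3 and YRF1-7 was 0.697. Reads of identical copies were thus spread over the copies with a scatter near that of counting, and the range among YRF1-1, YRF1-5 and YRF1-8 was 4.60% of their mean in the median library and 21.7% in the most uneven one. A difference between identical copies is not a difference between loci, and the 8 genes are not 8 independent measurements of a strain.

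On the deposited RPKM scale the summed YRF1 level differed 3.17-fold between the lowest and the highest strain. This fold and the order of strains depend on the scaling. The log2 ratio of the sum in acs2-ts over its wild type was -0.68 on the deposited scale. With libraries scaled by the median of ratios, as described below, it was 0.82. In acs2-ts the sum was 60.4 and 56.3 RPKM in the 2 cultures (58.4 ± 2.90, SD, n = 2). In its wild type it was 100.1 and 87.2 RPKM (93.7 ± 9.11). The ser33 cultures had 117.0 and 111.8 RPKM (114.4 ± 3.65). These 3 strains lay below every BY4741 culture, and no 2 of them overlapped.

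The BY4741 cultures had summed levels of 144.1 and 144.4 RPKM (144.3 ± 0.170). The sam1 cultures had 169.1 and 167.6 RPKM (168.4 ± 1.04), and the shm2 cultures 183.0 and 160.9 RPKM (172.0 ± 15.6). The wild type of pyk1 had 169.5 and 186.0 RPKM (177.7 ± 11.6), and pyk1 193.4 and 176.1 RPKM (184.7 ± 12.2). From sam1 upward, neighbours in this order overlapped (sam1 with shm2, shm2 with the wild type of pyk1, and that wild type with pyk1), whereas all neighbours below were apart. Single YRF1 genes had no extreme level in any strain. The median YRF1 gene stood between the 26.7 percentile of all genes, in the wild type of acs2-ts, and the 44.3 percentile, in acs2-ts. The sum was above the median of all genes, with 144.3 against 26.7 RPKM in BY4741 and 58.4 against 8.49 RPKM in acs2-ts.

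**Figure D1:**
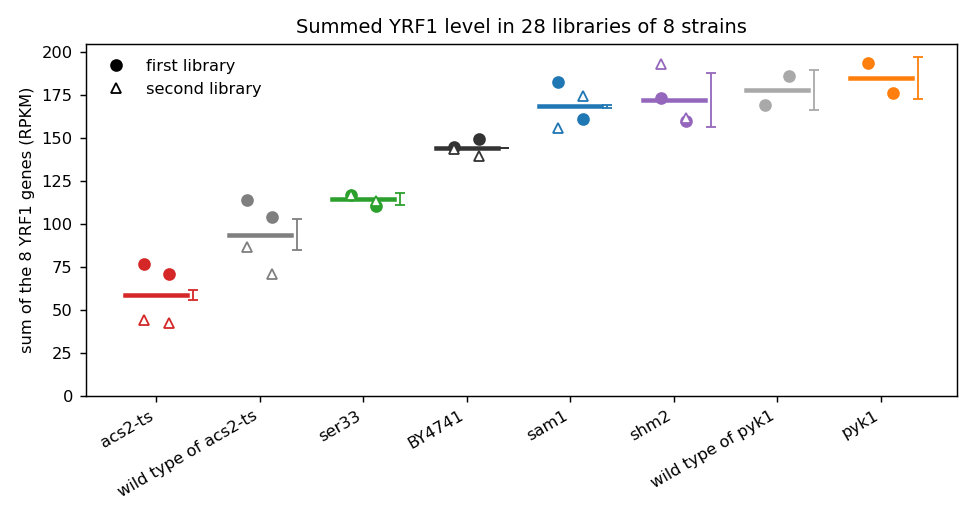
Summed level of the 8 YRF1 genes in RPKM (y axis, linear from 0) for each of 28 libraries, with strains ordered by their mean (line) and the SD of 2 cultures as a bar at its right. The columns of points within a strain are its cultures. Filled circles are the first and open triangles the second library of the same RNA. On this deposited scale acs2-ts is lowest at 58.4 RPKM and pyk1 highest at 184.7 RPKM, and the order depends on the scaling. The second libraries sit below the first in both acs2 strains.

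Libraries from the same RNA differed most in the strains of the acs2 pair. The first library held 1.74 and 1.68 times the summed YRF1 level of the second in the acs2-ts cultures and 1.31 and 1.47 times in those of its wild type. In the other 4 strains with repeat libraries this ratio was 0.897 to 1.17. As a result the levels overlapped between libraries, with 76.7 RPKM in the highest acs2-ts library and 70.7 RPKM in the lowest library of its wild type, although the means of the 2 cultures of each strain did not. The typical gene moved less between these libraries. In the acs2-ts cultures the median log2 ratio of first to second library was 0.69 and 0.64 for YRF1. It was 0.10 and 0.24 for all genes with a mean of at least 1 RPKM. In the wild type it was 0.37 and 0.49 for YRF1 and 0.15 and 0.08 for those genes.

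The first comparison asked whether YRF1 RNA differed between acs2-ts and its wild type. On the deposited scale it was lower in acs2-ts for all 8 genes, while the family fell less than the typical gene. YRF1-1 was at 6.99 and 6.71 RPKM in the acs2-ts cultures and at 12.6 and 10.5 RPKM in the wild type. YRF1-3 was at 8.14 and 7.37 RPKM against 12.8 and 11.2 RPKM, and YRF1-4 at 7.40 and 7.05 RPKM against 13.01 and 11.7 RPKM. For all 8 genes both acs2-ts cultures lay below both wild-type cultures, as they did for 82.2% of all genes.

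By limma with Benjamini-Hochberg adjustment over all 7125 genes, all 8 were called lower, with adjusted p = 0.00373 to 0.0181. Of all genes, 83.8% were called in this comparison and 78.1% were called lower, so the share of YRF1 genes called is near the background. The log2 fold changes, computed on log2(RPKM + 1), ran from -0.73 for YRF1-4 (SE 0.14) to -0.52 for YRF1-7 (SE 0.15), with a median of -0.65. The median of all genes was -1.27, so the median YRF1 gene stood 0.63 above it. When libraries were scaled by the median of ratios instead, which sets the typical gene near no change (median of all genes 0.03), all 8 YRF1 genes were called higher in acs2-ts, by 0.65 to 0.88, as were 28.5% of all genes. Relative to ACT1, which encodes actin, all 8 were again called lower, as were 5476 of 7125 genes, and the median YRF1 gene stood 0.64 above that of all genes. The deposited values fix only shares of a library, and whether YRF1 RNA per cell fell or rose in acs2-ts cannot be told apart.

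**Figure D2:**
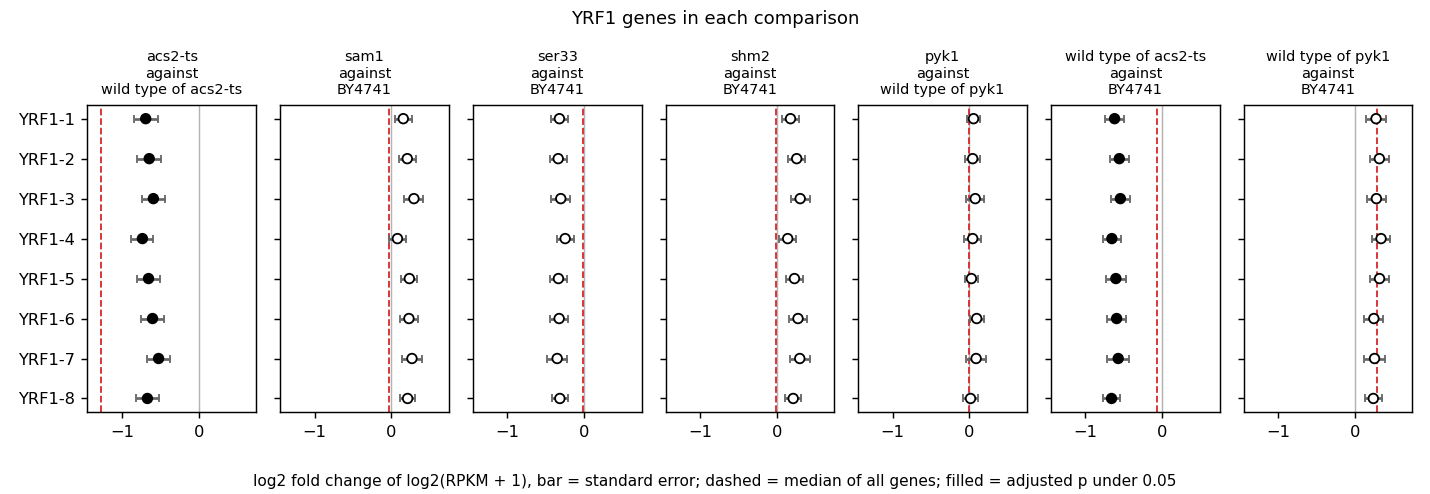
Log2 fold change of each YRF1 gene on the log2(RPKM + 1) scale (x axis, bars are standard errors) in the 5 mutants and in the other wild types against BY4741, with the median of all genes as a dashed line and filled points for an adjusted p under 0.05 by limma. In acs2-ts all 8 lie between zero and the median of all genes (-1.27), in sam1 and shm2 above zero, in ser33 below zero, and in the wild type of acs2-ts below BY4741; under median-of-ratios scaling the acs2-ts points lie above zero.

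The other parts of the chromosome ends give the setting of this value. Of the 16 other helicase-like frames of Y' elements, all 16 were called lower in acs2-ts, with a median log2 fold change of -0.75. The 223 remaining genes within 20 kb of a chromosome end had a median of -0.74, with 140 called lower and 20 higher. Genes for silencing factors had a median of -1.54, with 12 of 12 lower. SIR2, the histone deacetylase of silent chromatin, fell from 21.2 ± 2.23 to 5.29 ± 0.365 RPKM (n = 2 cultures each, adjusted p = 0.000152 by limma), and SIR3 and SIR4, whose proteins bind nucleosomes with it, had log2 fold changes of -1.44 and -1.75 (adjusted p = 0.000939 and 0.000157). All 10 genes of telomerase and capping and all 8 of recombination and helicases at telomeres were called lower, with medians of -1.52 each. TLC1, the RNA template of telomerase, did not pass (567 ± 45.1 RPKM in the wild type, 543 ± 22.6 in acs2-ts, log2 fold change -0.06, adjusted p = 0.631). These directions are those of the deposited scale, on which 78.1% of all genes were lower. With median-of-ratios scaling, the Y' frames turned like YRF1, with 16 of 16 called higher and a median of 0.62, and of the 223 genes near chromosome ends 82 were called higher and 22 lower. Under this scaling 2032 of 7125 genes were called higher and 1563 lower. Of the silencing factors 3 of 12 were called lower and 1 higher (median -0.26). SIR2 and SIR4 stayed lower (-0.46 and -0.44), while SIR3 did not pass (-0.14). Of the telomerase and capping genes 2 of 10 were then called lower and 0 higher (median -0.16). Of the recombination and helicase genes 3 of 8 were called lower and 3 higher (median -0.22). The shares of silencing factors and of telomerase and capping genes called lower were near that of all genes. Relative to ACT1, 15 of 16 Y' frames and all 12 silencing factors were called lower.

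The call in acs2-ts rested in part on single cultures. Without replicate 1 of the wild type 4 of 8 genes were called, with a median YRF1 log2 fold change of -0.54 and 80.3% of all genes called. Without replicate 3 of acs2-ts 3 of 8 were called, with a median of -0.58 and 83.4% of all genes called.

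The next 3 comparisons share the BY4741 cultures, and their values are given side by side. In sam1 and shm2 the mean level of each YRF1 gene was above and in ser33 below that of BY4741, but 0 of 8 genes passed the test in any of these strains. YRF1-3 was at 17.6 and 17.9 RPKM in BY4741, at 22.6 and 21.5 RPKM in sam1, at 14.5 and 14.0 RPKM in ser33, and at 24.4 and 20.2 RPKM in shm2. YRF1-1 was at 17.7 and 18.3 RPKM in BY4741, at 19.7 and 20.7 RPKM in sam1, at 14.5 and 14.0 RPKM in ser33, and at 21.8 and 19.3 RPKM in shm2. For both genes the ser33 cultures were the lowest and the order was the same as for the sum.

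YRF1-2, whose frame has the largest share of stretches found once in the genome, followed the same order. It was at 17.6 and 16.6 RPKM in BY4741, 19.4 and 20.3 RPKM in sam1, 13.4 and 13.2 RPKM in ser33, and 22.0 and 19.3 RPKM in shm2. YRF1-4 was less regular, with 20.6 and 18.9 RPKM in BY4741, 20.5 and 21.3 RPKM in sam1, 17.1 and 15.8 RPKM in ser33, and 22.4 and 21.3 RPKM in shm2. In YRF1-4 alone the sam1 and BY4741 cultures overlapped.

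In sam1 the log2 fold changes on the log2(RPKM + 1) scale were 0.08 to 0.29, with a median of 0.22, and the summed level was 1.17 times that of BY4741. The adjusted p by limma was 0.127 to 0.610, and 0 of 8 genes had an unadjusted p under 0.05, against 2968 of 7125 genes. Of all genes 16.3% were called. The sam1 cultures lay above both BY4741 cultures for 7 of 8 genes, as 31% of all genes did. The 95% intervals of the 8 differences ran from -0.19 to 0.60 in all. The other Y' frames had a median of 0.00 and 0 of 16 called, and the 223 genes near chromosome ends had a median of -0.31, with 41 called lower and 7 higher.

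In ser33 the log2 fold changes were -0.35 to -0.25, with a median of -0.32, and the summed level was 0.793 times that of BY4741. The adjusted p by limma was 0.685 to 0.774, although 7 of 8 genes had an unadjusted p under 0.05, against 458 of 7125 genes. Of all genes 0.014% were called, that is 1 gene. Both ser33 cultures lay below both BY4741 cultures for 8 of 8 YRF1 genes, which 24.4% of all genes did. The 95% intervals ran from -0.67 to 0.02. The other Y' frames had a median of -0.37, with 13 of 16 below BY4741 in both cultures and 0 called, whereas the median of the 223 genes near chromosome ends was -0.02. SIR2 was at 10.03 ± 1.16 RPKM in ser33 and 13.4 ± 0.826 RPKM in BY4741 (log2 fold change -0.39, adjusted p = 0.774 by limma), and SIR3 and SIR4 had log2 fold changes of 0.09 and -0.09 (adjusted p = 0.960 and 0.952).

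In shm2 the log2 fold changes were 0.14 to 0.30, with a median of 0.24, and the summed level was 1.19 times that of BY4741. The adjusted p by limma was 0.685 to 0.735, and 1 gene, YRF1-3, had an unadjusted p under 0.05, against 485 of 7125 genes. Of all genes 0.014% were called. Both shm2 cultures lay above both BY4741 cultures for 8 of 8 genes, which 14.6% of all genes did. The 95% intervals ran from -0.12 to 0.62. The other Y' frames had a median of 0.13, with 5 of 16 above BY4741 in both cultures and 0 called.

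A direct contrast of the mutants, added after these values were seen, gave higher YRF1 levels in sam1 than in ser33. The summed level was 1.47 times higher, and 7 of 8 genes were called by limma, with log2 fold changes of 0.33 to 0.62 and adjusted p = 0.0223 to 0.0670. YRF1-4 did not pass. Of all genes 30.1% were called in this contrast, and 15.5% were higher in sam1. Without replicate 3 of sam1, replicate 2 of ser33 or replicate 3 of ser33 the count was 0, but these fits called 1, 0 and 0 of all 7125 genes, and the median YRF1 log2 fold change stayed at 0.54, 0.57 and 0.53 (0.55 with all cultures). Without replicate 1 of sam1 the count was 4 (24.3% of all genes called, median 0.55), and relative to ACT1 it was 0 (10.8% called, median 0.78). Between shm2 and ser33 the summed level differed 1.50-fold with log2 fold changes of 0.39 to 0.65. Here 0 of 8 were called (adjusted p = 0.243 to 0.279 by limma, 0.0281% of all genes called). Without adjustment all 8 YRF1 genes and 1088 of 7125 genes had p under 0.05.

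In pyk1 no difference from its wild type was seen beyond the spread of the cultures. YRF1-1 was at 23.3 and 22.4 RPKM in pyk1 and at 21.2 and 22.9 RPKM in the wild type. YRF1-4, the highest copy in these strains, was at 28.1 and 24.1 RPKM and at 24.5 and 26.0 RPKM. Cultures overlapped for all 8 genes, while those of 46.6% of all genes did not. The log2 fold changes were 0.01 to 0.09, with 95% intervals from -0.32 to 0.49 and adjusted p = 0.662 to 0.981 by limma, which called 0% of all genes. In unadjusted terms 0 of 8 YRF1 genes and 1018 of 7125 genes had p under 0.05.

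The 3 wild types did not share one YRF1 level. In the wild type of acs2-ts all 8 genes were called lower than in BY4741, with log2 fold changes of -0.66 to -0.54 and adjusted p = 0.00654 to 0.0221 by limma, in a comparison that called 49.3% of all genes and 26.7% lower. The median of all genes was -0.07, so here the YRF1 genes were lower than the typical gene. Of the other Y' frames 14 of 16 were called lower, with a median of -0.71, while the 223 genes near chromosome ends had a median of -0.12. Relative to ACT1 0 of 8 YRF1 genes were called, with a median of -0.39 and 21% of all genes called. Without replicate 2 of that wild type 2 were called (median -0.49, 25.7% of all genes called), without replicate 2 of BY4741 5 (median -0.61, 41.9%) and with the first libraries only 5 (median -0.40, 41.5%), against a median of -0.60 with all libraries. SIR2 was called higher in this wild type than in BY4741 (log2 fold change 0.62, adjusted p = 0.0112 by limma), while SIR3 and SIR4 were called lower (-0.44 and -0.72, adjusted p = 0.0482 and 0.00565), and relative to ACT1 none of these 3 was called. The wild type of pyk1 had log2 fold changes of 0.24 to 0.34 over BY4741, with all 8 genes above in both cultures (53.7% of all genes were). Here 0 of 8 were called (adjusted p = 0.0576 to 0.178 by limma, 54.7% of all genes called). Without adjustment 3 of 8 YRF1 genes and 4330 of 7125 genes had p under 0.05. The median of all genes was 0.28, about that of the family. SIR2 was called higher (1.24, adjusted p = 0.00106 by limma, also under both other scalings). SIR3 and SIR4 had log2 fold changes of 0.22 and -0.18 (adjusted p = 0.229 and 0.230 by limma). With median-of-ratios scaling SIR4 was called lower (-0.49) and SIR3 was not called (-0.09), and relative to ACT1 neither was called.

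Within a library the 8 genes were close, with the highest 1.06 to 1.37 times the lowest. YRF1-4 differed between cultures in its level relative to the others. It was 1.17 times the mean of the other 7 in replicate 2 of BY4741 and 1.20 and 1.15 times in ser33, but 0.967 times in replicate 1 of sam1 and 0.976 times in replicate 1 of shm2. In the acs2-ts cultures it was 0.978 and 1.00 times, with 1.06 and 0.841 times in the libraries of replicate 1.

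**Figure D3:**
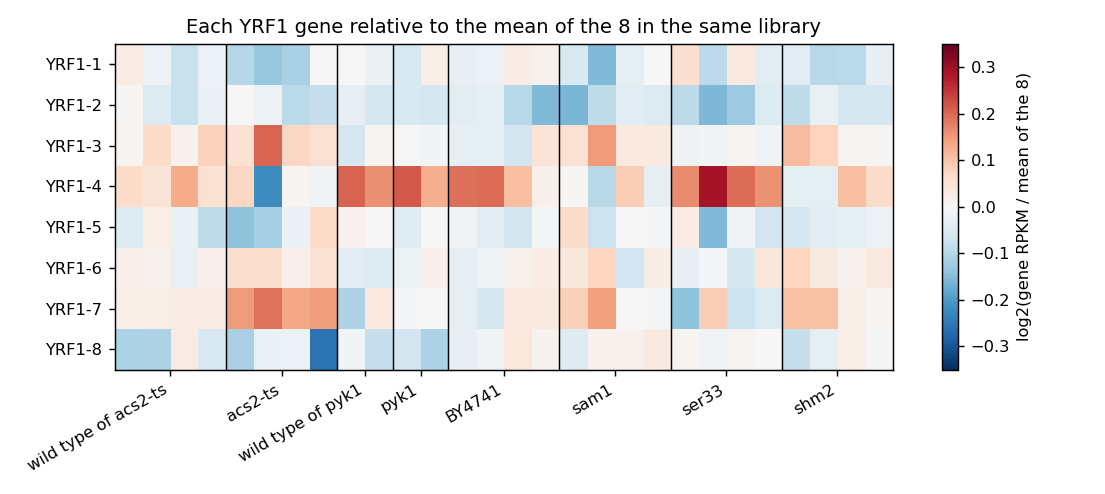
Each YRF1 gene (rows) relative to the mean of the 8 in the same library (columns, grouped by strain), as the log2 of the ratio of RPKM values, red above and blue below the mean. YRF1-4 stands out as the highest copy in ser33, in the strains of the pyk1 pair and in replicate 2 of BY4741, with a highest ratio over the mean of the other 7 of 1.26 in a ser33 library.

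Frames at the upstream side of a Y' element differed between cultures of one strain, a pattern noticed after the values were seen and given with no test. In the element on the left arm of chromosome II, YBL111C lies upstream of YBL113C in the direction of reading, and the ratio of their RPKM values was 1.10 in replicate 3 of BY4741, 1.65 in replicate 1 of sam1 and 1.18 in replicate 1 of shm2. In the other 13 cultures it was 0.615 to 0.876. The ratios of YHR218W to YHR219W, on the right arm of chromosome VIII, were 1.10, 1.31 and 1.26 in these 3 cultures and 0.613 to 0.874 in the others.

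On the right arm of chromosome XVI the ratio of YPR202W to YPR204W was 1.72, 2.04 and 1.82 in the same 3 cultures and 0.768 to 1.31 in the others. YLR462W, a short frame just before YRF1-4, was at 21.1, 21.9 and 21.2 RPKM in them, against 9.11 RPKM in replicate 2 of BY4741, 12.7 RPKM in replicate 3 of sam1 and 15.7 RPKM in replicate 2 of shm2. All frames of these ratios and YLR462W belong to the group of near-identical genes described above. Stretches of 50 bases found once in the genome made up 0% of YBL111C and YHR218W and 7.70% of YPR202W. The chromosome arms are therefore not independent observations. The summed YRF1 level was 144.4 RPKM in replicate 3 and 144.1 RPKM in replicate 2 of BY4741. It was 169.1 and 167.6 RPKM in replicates 1 and 3 of sam1, and 183.0 and 160.9 RPKM in replicates 1 and 2 of shm2. YRF1-4, whose frame starts farthest downstream, was 1.05 and 1.17 times the mean of the other 7 in replicates 3 and 2 of BY4741. It was 0.967 and 1.02 times in replicates 1 and 3 of sam1, and 0.976 and 1.07 times in replicates 1 and 2 of shm2. The YRF1-4 ratios near 1 in the acs2-ts cultures came without high values for YBL111C or YHR218W. A link between these values was not tested. YLR464W overlaps the first bases of YRF1-4 on the same strand, and reads there cannot be told apart between both genes.

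**Figure D4:**
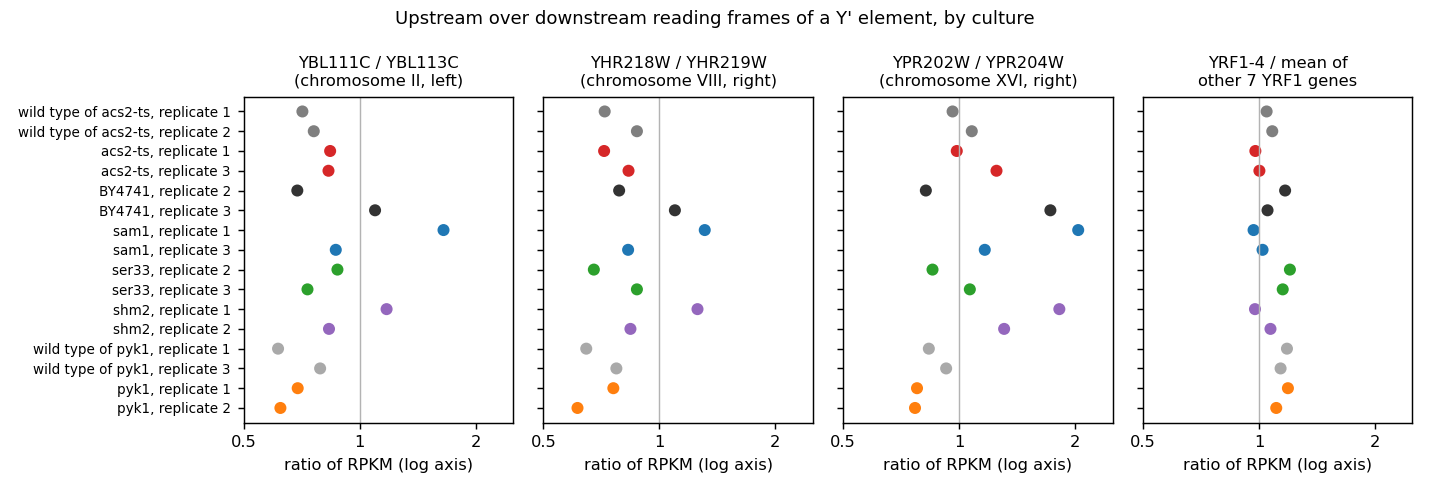
Ratio of the RPKM of an upstream to a downstream frame of the same Y' element on 3 chromosome arms, and of YRF1-4 to the mean of the other 7 YRF1 genes, for each of 16 cultures (x axis logarithmic, grey line at 1). Replicate 3 of BY4741, replicate 1 of sam1 and replicate 1 of shm2 have the highest values in the first 3 panels (1.10 to 2.04), apart from the other culture of their own strain. The frames belong to 1 group of near-identical genes, so these panels are not independent.

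Across the 16 cultures the YRF1 genes followed each other, with Pearson r between members of 0.966 to 0.998 on the log2(RPKM + 1) scale, and the 16 other Y' frames followed the mean of the 8 with r of 0.870 to 0.994. Given the shared reads, these values describe 1 sequence family. Among 6042 genes outside the Y' lists with no near-identical copy, those most like the mean of the 8 were YTP1 (r = 0.974), UBR2, which encodes a ubiquitin ligase (0.971), VTC3, of the vacuolar transporter chaperone complex (0.967), PEX6, a peroxisomal ATPase (0.965), and TRS130, of a trafficking complex (0.964). The median r over all genes was 0.737, and most genes were low in the acs2-ts cultures, which weigh on r. Over the 12 cultures outside the acs2 pair, r was 0.845 for YTP1, 0.847 for UBR2, 0.797 for VTC3, 0.924 for PEX6 and 0.819 for TRS130. PEX6 lies 19.5 kb from the left end of chromosome XIV, the arm that ends with YRF1-6, and ran from 9.68 ± 0.711 RPKM in acs2-ts to 34.2 ± 0.565 RPKM in pyk1. YTP1, UBR2, VTC3 and TRS130 lie 188 to 431 kb from the nearest chromosome end.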

How the data were processed

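Total RNA was depleted of ribosomal RNA and sequenced with a stranded Illumina protocol. The authors deposited 1 table of RPKM values with a column per library. Per the submitters' processing notes, CASAVA 1.8.2, TopHat2 2.0.13, edgeR and sacCer3 were named, while the counting of reads with several places is not given in the sources used here. The paper does not describe this experiment. A further 32 columns hold no values and were not used.

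RPKM times exon length gave whole reads for 99.5% to 100% of low values (30 reads or fewer, tolerance 0.1 reads), and for all 8 YRF1 genes in 28 of 28 libraries. These reads describe depth and entered no test of strains. Libraries of a culture were averaged as log2(RPKM + 1). limma 3.58.1 (R 4.3.3) was fitted to all 7125 genes, with BY4741 and its 3 mutants in 1 model, the wild types in another and the other pairs alone, without a replicate block, with Benjamini-Hochberg adjustment and a threshold of 0.05. The fit was tested on simulated data. Adding 1 understates changes of low genes. Only the separate cultures count as n, with 2 per strain. The p-values rest on the spread between cultures, pooled over the strains of a model and moderated by limma over all genes. Cultures of a strain outside a contrast but in its model thus enter its p-values. RPKM values within a library are shares of its reads.

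Sequences and positions came from the RefSeq R64 genome, aligned with MAFFT 7.526 and BLAST+ 2.17.0. The members and lists were chosen with earlier results of these data known. Named were the 8 genes, SIR2, SIR3, SIR4 and the 5 genes most correlated with the family mean, while list genes past the threshold could be named and are otherwise given as counts. TLC1, the genes of the deleted or mutated enzymes, the upstream frames and the contrasts with ser33 were added after values were seen. Alternatives were the pseudocount (0.1), single libraries, a minimum mean of 1 RPKM, the strains in the model, scaling, a replicate block and leaving out each culture.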

Additional observations from a re-analysis of the deposited data

Results flagged for a closer look

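In strains with 4 libraries, 1 library stood far from the other 3 in 7 of 60 sets of YRF1 values (8 genes, the sum and the relative level of YRF1-4, over 6 strains). About 1 in 20 such sets would do so by chance if the 4 libraries were independent. They come in pairs from the same RNA, so this rate need not hold, and the sets share reads. In BY4741 the first library of replicate 3 was high for YRF1-1 (19.0 RPKM, others 17.6 to 17.7), YRF1-6 (18.8 RPKM, others 17.6 to 17.8) and YRF1-8 (19.2 RPKM, others 17.6 to 17.8). The second library of that culture was low for YRF1-2 (15.7 RPKM, others 17.4 to 17.6). In ser33 the first library of replicate 3 was low for YRF1-6 (13.3 RPKM, others 14.3 to 14.5). In shm2 the second library of replicate 1 was high for YRF1-4 (23.6 RPKM, others 21.2 to 21.5) and YRF1-8 (23.6 RPKM, others 20.2 to 20.5). Neither summed levels nor the relative level of YRF1-4 had such a library.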

How the results depend on the processing

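The direction in acs2-ts depended on the scaling. With median-of-ratios scaling the log2 fold changes became 0.70 for YRF1-1, 0.74 for YRF1-2, 0.81 for YRF1-3, 0.65 for YRF1-4, 0.73 for YRF1-5, 0.79 for YRF1-6, 0.88 for YRF1-7, 0.71 for YRF1-8, and the log2 ratio of the summed level 0.82 (-0.87 from second libraries only). Relative to ACT1, the change of YRF1-4 in shm2 became -0.0242, and those in pyk1 -0.0856 for YRF1-1, -0.0965 for YRF1-2, -0.0631 for YRF1-3, -0.0971 for YRF1-4, -0.113 for YRF1-5, -0.0438 for YRF1-6, -0.0517 for YRF1-7, -0.125 for YRF1-8. Leaving out 1 culture gave, in pyk1, -0.00118 to 0.106 for YRF1-1, -0.0271 to 0.110 for YRF1-2, -0.0196 to 0.170 for YRF1-3, -0.0649 to 0.149 for YRF1-4, -0.0304 to 0.0806 for YRF1-5, -0.0449 to 0.217 for YRF1-7, -0.0731 to 0.10 for YRF1-8. Between the wild type of pyk1 and BY4741, median-of-ratios scaling gave -0.0428 for YRF1-1, -0.0378 for YRF1-3, -0.0707 for YRF1-6, -0.0619 for YRF1-7, -0.0778 for YRF1-8. Leaving out 1 culture gave 3 to 8 called genes in acs2-ts, 2 to 8 between the wild type of acs2-ts and BY4741, and 0 to 7 between sam1 and ser33. In the comparison of the wild type of acs2-ts with BY4741, 5 were called from first libraries, 0 relative to ACT1 and 1 with a replicate block. For the wild type of pyk1, 3 were called with all 8 strains in 1 model. Between sam1 and ser33, 0 were called relative to ACT1 and 0 with a replicate block, and between shm2 and ser33, 7 with all 8 strains in 1 model. The log2 ratio of the summed level relative to ACT1 was 0.25 in sam1, -0.58 in ser33, 0.0358 in shm2, -0.0955 in pyk1, -0.40 in the wild type of acs2-ts and 0.74 in that of pyk1. With median-of-ratios scaling it was 0.21 in sam1 and -0.0336 in the wild type of pyk1. Over all 33 near-identical genes it was 0.15 in sam1, -0.42 in ser33 and 0.19 in the wild type of pyk1. In the wild type of acs2-ts it was -0.43 from first and -0.85 from second libraries. The cause of these shifts was not tested. 

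Relative to the median of all genes, the log2 fold change of the median YRF1 gene was 0.55 to 0.72 in acs2-ts over all settings. It was 0.19 to 0.27 in sam1, -0.33 to -0.26 in ser33 and 0.17 to 0.36 in shm2. Against BY4741 it was -0.66 to -0.40 in the wild type of acs2-ts. The sign changed in pyk1 (-0.0118 to 0.126) and in the wild type of pyk1 against BY4741 (-0.0746 to 0.0986). Scaling a library moves nearly all genes alike, and settings that change only the model leave fold changes as they are. A kept sign under those settings was therefore largely fixed in advance. The count over all genes in sam1, 1161 as reported, was 330 from first and 424 from second libraries, 2845 with all 8 strains in 1 model, 2 relative to ACT1, and 0 in a fit of the 2 strains or with a replicate block. It was 0 without either BY4741 culture or replicate 3 of sam1, 4 without either ser33 culture, and up to 1690 without another culture. In acs2-ts it was 5971, and 3595 with median-of-ratios scaling; in the wild type of acs2-ts against BY4741 3516, and 1493 relative to ACT1. Between sam1 and ser33 it was 2147, and 768 relative to ACT1, 3216 with all 8 strains in 1 model, 0 with a replicate block and 0 to 2369 when 1 culture was left out; between shm2 and ser33 2, and 137 with all 8 strains in 1 model. Same-numbered cultures had correlations of their deviations from -0.204 to 0.685, the highest between replicate 2 of BY4741 and replicate 2 of shm2. With only 2 cultures per strain, these values cannot decide whether the numbers pair cultures. The replicate block of acs2-ts, with the numbers of the descriptions, called 8. A block could not be fitted for pyk1. Counted over genes and settings, a YRF1 gene lost the threshold 80 times and gained it 12 times. Where a strain was left with 1 culture, that culture was assumed to vary like the others. Sequence identity limits values to the family rather than to a chromosome end.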
